A study of Mus musculus with 2 samples.

Results

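The genes described here are 44 genes of DNA replication and deoxynucleotide synthesis, chosen by name from 20738 mouse genes with a named probe on the array. They cover origin recognition and helicase loading, helicase activation, the replicative polymerases, the clamp and its loader, Okazaki fragment joining, deoxynucleotide synthesis and replication-coupled chromatin assembly. All 44 were read, through 52 probes of 1 spot each, and all 52 probes lay above the detection floor on both arrays. The study measured splenic CD4 T cells of the C57BL/6 strain carrying a Gfi1 knockout, and wild-type cells of the same strain, with 1 array for each genotype. Gfi1 encodes a zinc-finger repressor of transcription, and the title of the series asks how it bears on the T helper 1 programme. Both cultures were started from naive CD4 T cells and stimulated for 2 days through the T cell receptor, with an immobilized antibody to its beta chain at 3 µg/ml, together with anti-CD28 at 1 µg/ml. The medium of both held 10 ng/ml IL-2 and blocking antibodies to IL-4 and IFN-γ at 5 µg/ml each. The sources used here give neither the animals' age, nor the knockout allele, nor whether animals were pooled.

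A stimulated T cell leaves quiescence and copies its genome. In G1 the origin recognition complex, with CDC6 and CDT1, loads the ring of MCM2 to MCM7 onto DNA, which licenses each origin to fire once. At the start of S phase the kinase of CDC7 and DBF4 lets CDC45 and the GINS complex join the ring as the active CMG helicase, and polymerases alpha, delta and epsilon, the PCNA clamp and the enzymes that supply deoxynucleotides then act together. Many of these genes are textbook targets of the E2F transcription factors, which are released from the retinoblastoma protein late in G1.

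Each value below is a log2 difference between 2 libraries, the one labelled knockout minus the one labelled wild type, after each array was scaled to the 75th percentile of its probe signals (269 units for the library labelled knockout, 263 units for the library labelled wild type). Signals are given as deposited, on a linear scale before scaling. With 1 array per genotype there is no spread between animals or cultures, no test and no p-value, and genes are described by size. The precision within an array was read from probes printed on 10 spots. There were 399 of these, and the ranges given next hold a part of them. The SD of the difference over the spots of a probe had a median of 0.11 at 50 to 500 units (63 probes). It was 0.05 at 500 to 5000 units (103 probes) and 0.04 above 5000 units (40 probes). In the mean over their probes, 40 of the 44 genes reached 500 units on an array. Signals of different probes were not compared with each other, because each probe has its own brightness. The sums over marker lists, given below, are led by their brightest probes and do not measure an amount of cells.

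The Gfi1 probe itself gave 18100 units in the library labelled knockout, against 4260 units in the library labelled wild type. This runs against the labels unless the probe lies outside the deleted part, whose position the sources used here do not give, so the libraries are called by their labels. The sex-linked transcripts also separated them: Xist read 3.86 and 447 units, and Eif2s3y 3870 and 2.91 units, in the libraries labelled knockout and wild type. Uty read 30.4 and 3.40 units in the same order, and Kdm5d was below the floor on both arrays. By these transcripts the libraries differ in the sex of their animals, so genotype and sex cannot be told apart for any gene here. Of the 44 genes 1, Pola1, lies on the X chromosome. Of 9 T cell markers with a named probe, 8 lay above 500 units on both arrays, and Cd247 only on the array of the library labelled knockout. Cd4 gave 2146 units in the library labelled knockout, against 2319 units in the library labelled wild type.

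The replication genes were slightly lower as a group in the library labelled knockout. Their median log2 difference was -0.20 (quartiles -0.24 and -0.09), against -0.05 over all 13411 detected genes and -0.06 over the 6831 bright genes, those with a signal of 500 units or more on either array. Of the 44, 37 lay below the median of all detected genes, where 50% of all genes lie by construction and 52.6% of the bright genes lay. Differences below 0 were read for 40 of the 44 and above 0 for 4, beside 58.4% of all detected genes and 63.4% of the bright genes below 0. The share of all detected genes was 47.6% after cyclic loess scaling, where 36 members were below 0 and 8 above.

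The differences were small. At least 1.2-fold lower were 10 of 44 genes (22.7%), beside 17.2% of all detected genes and 11.9% of the bright genes. None of the 44 was at least 1.2-fold higher, beside 17.0% of all detected genes and 11.1% of the bright genes. None was 2-fold lower, beside 1.52% of all detected and 0.234% of the bright genes, and none was 2-fold higher, beside 3.62% and 1.98%. The genes past 1.2-fold were Tyms, Cdc6, Rpa1, Tk1, Mcm5, Cdc7, Mcm3, Mcm10, Gins2 and Rfc4, in order from the lowest. Gins2 at -0.2641 and Rfc4 at -0.2633 lay almost at the cut, a log2 size of 0.2630. The SD between spots at their brightness was 0.05 and 0.04. The share past 1.2-fold lower lay near that of all genes, and was below it after quantile normalization (13.6%, beside 15.6% of all genes) and cyclic loess (11.4%, beside 12.4%), so the group is described by its shift and not by that count. In a bulk culture, fewer cycling cells and less RNA of these genes per cell cannot be told apart.

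The shift was also read among genes of like brightness. Of the 24 members above 5000 units, 21 lay below the median of the 1989 genes in that range (-0.06) and 18 below their lower quartile of -0.16, with a median of -0.21. Of the 16 members between 500 and 5000 units, 12 lay below the median of 4653 genes (-0.06) and 9 below their lower quartile of -0.18, with a median of -0.19. The 4 members between 50 and 500 units had a median of -0.26, beside -0.04 over 4161 genes. Pole is among these 4 only by the mean of its 3 probes, whose signals ran from 14.9 to 9000 units over the 2 arrays. Set against the spread between spots at their own brightness, 29 members lay more than 2 SDs below the median of all genes, 1 lay more than 2 SDs above it, and 14 lay within. That spread covers the array alone and not the cultures. The same count was not made over all genes, so it has no background share and is not read as a result about the members. For scale, the 30th percentile of the bright genes was -0.15 and their 70th percentile 0.04.

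**Figure D1:**
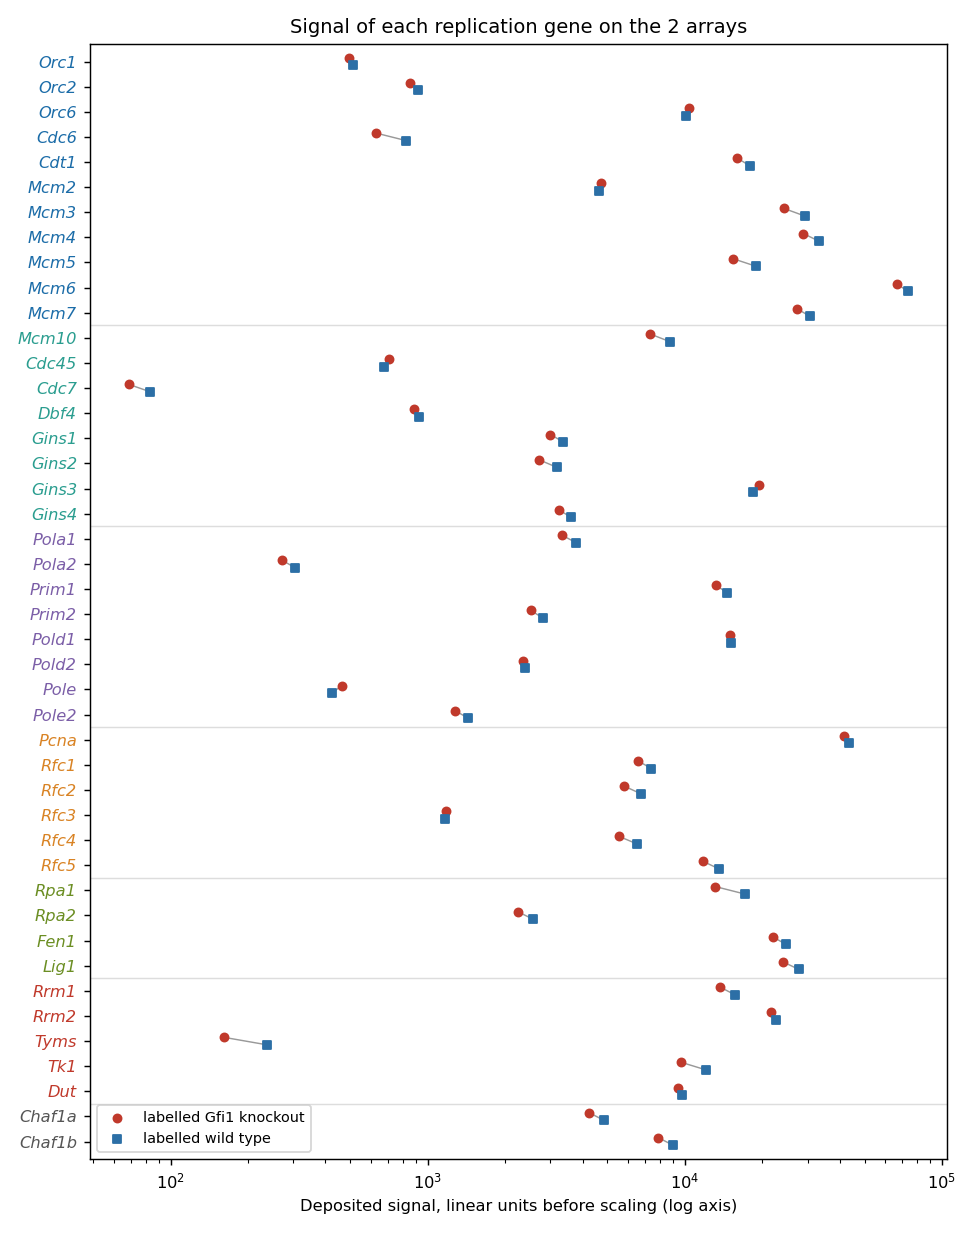
Deposited signal of each of the 44 genes on the 2 arrays (log axis, linear units before scaling), circles for the library labelled knockout and squares for the library labelled wild type. Gene names are coloured by role and ruled off in the order licensing, activation, polymerases, clamp and loader, single strand and lagging strand, dNTP synthesis and chromatin assembly. The circle lies left of the square for most genes, and positions of different genes are not comparable.

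Promoter sequence is shown for the licensing genes because a loose form of the motif bound by E2F factors was found in them more often than in the other role groups. RefSeq windows of 300 bases, from 250 before to 50 after a gene's start (build GRCm38.p6), were at hand for 37 of the 44 genes. The letters TTTNNCGC, on either strand, were found in 14 of these 37 genes (37.8%). They were found in 5.93% of all 27025 genes with a window, in 5.17% of all 32851 windows, and in 10.9% of the 5516 bright genes with a window. The share was higher in related lists described below: 42.9% of 28 replication factors outside the 44, and 50% of 16 E2F and G1/S regulators. The licensing group held 7 of the 14, out of 10 licensing genes with a window. In the lines that follow, each match is in capitals within its flanking bases and is read on the strand that gives TTTNNCGC. Mcm3, Mcm5, Mcm6, Mcm7 and Rfc3 hold more than 1 match, some of them overlapping on opposite strands, and 1 is shown for each MCM gene. Tyms is added as the gene with the lowest value. Its match, TTTGTCGC, is the only one with a base other than C or G at the free places. A stricter motif with only C or G there would leave Tyms out of the 14.
Orc1 (chr4:108579416-108579445, minus strand): aggagaaaactTTTCGCGCcactaaccgaa
Cdc6 (chr11:98908002-98908031, minus strand): accccaggcgaTTTCCCGCtctccaccggc
Cdt1 (chr8:122568036-122568064, plus strand): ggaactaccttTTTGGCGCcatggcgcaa
Mcm3 (chr1:20820275-20820304, plus strand): acttcccaagtTTTCCCGCcacggaagttt
Mcm5 (chr8:75109345-75109374, plus strand): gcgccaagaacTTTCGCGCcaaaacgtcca
Mcm6 (chr1:128359734-128359763, minus strand): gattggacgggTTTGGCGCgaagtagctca
Mcm7 (chr5:138171849-138171878, minus strand): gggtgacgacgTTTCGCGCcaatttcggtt
Tyms (chr5:30073576-30073595, minus strand): aaggtcctggtTTTGTCGCt

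The matches lay between 165 bases before and 41 bases after the annotated start. The 14 genes with a match had a median difference of -0.20, with 11 below the median of all genes, and the 23 genes with a window and no match also had a median of -0.20, with 20 below it. CCAAT, on either strand, the box bound by NF-Y, was found in 22 of the 37 genes (59.5%), in 41.1% of all genes with a window and in 37.4% of all windows. Of the bright genes with a window 43.2% held it, and of 21 mitotic genes with a window 76.2%. TTTGAA, the core of the cell cycle homology region of mitotic genes, was found in 7 of 37 (18.9%). It was found in 20.2% of all genes, in 14.9% of the bright genes and in 17.9% of all windows. The 7 genes with TTTGAA had a median difference of -0.06, with 4 below the median of all genes, and the 30 without it had a median of -0.21, with 27 below. Of the 7 genes with TTTGAA, 4 are helicase activation genes. The mitosis list, where 66.7% of 21 genes with a window hold TTTGAA, had a median of -0.19 over its 25 detected genes. For CCAAT the medians were -0.18 over the 22 genes with it and -0.22 over the 15 without it. These differences were not tested. AATCACNGC, taken from the consensus bound by GFI1, was found in none of the 37. It was found in 1.05% of all genes, in 1.25% of the bright genes and in 0.919% of all windows. A match is a string of letters and not a bound site.

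The whole windows of Mcm5 and Mcm2 show both ends of the MCM ring's values, with TTTNNCGC and CCAAT matches in capitals on either strand. The Mcm5 window holds 2 overlapping TTTNNCGC matches, which merge into 1 run of capitals, and 3 CCAAT boxes, while the Mcm2 window holds 1 CCAAT box and no TTTNNCGC match. The pair was picked by value and does not show that matches follow it. Mcm6, at -0.18, holds 3 TTTNNCGC matches, more than Mcm5, and Mcm4 has no window.
Mcm5 promoter window (chr8:75109259-75109558, plus strand): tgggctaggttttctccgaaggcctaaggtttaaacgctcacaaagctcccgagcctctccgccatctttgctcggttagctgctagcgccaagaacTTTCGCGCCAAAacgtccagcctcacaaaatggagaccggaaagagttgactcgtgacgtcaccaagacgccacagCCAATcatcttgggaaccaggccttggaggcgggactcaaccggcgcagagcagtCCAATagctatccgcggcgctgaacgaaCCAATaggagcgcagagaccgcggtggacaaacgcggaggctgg
Mcm2 promoter window (chr6:88898731-88899030, minus strand): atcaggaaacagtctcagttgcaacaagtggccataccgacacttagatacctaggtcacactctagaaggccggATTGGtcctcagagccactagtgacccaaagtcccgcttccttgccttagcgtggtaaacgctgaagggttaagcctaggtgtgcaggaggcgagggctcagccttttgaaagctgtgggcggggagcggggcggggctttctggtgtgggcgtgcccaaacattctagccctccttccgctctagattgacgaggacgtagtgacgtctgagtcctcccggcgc

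**Figure D2:**
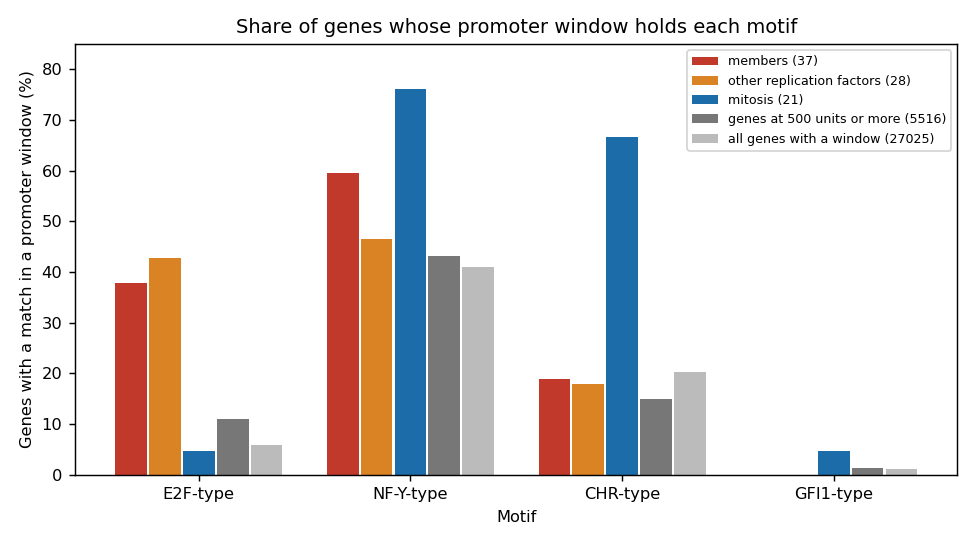
Share of genes (percent) with at least 1 match in a promoter window for 4 motifs, named by the factor or element they come from, in 5 gene sets with the number of genes with a window in brackets. E2F-type matches were found in 37.8% of the members, 42.9% of the other replication factors and 4.76% of the mitosis list. CHR-type matches were found in 18.9% of the members and 66.7% of the mitosis list.

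Licensing genes had a median of -0.19 over 11 genes, 9 of them below the median of all genes. Within the MCM ring, whose 6 subunits form 1 helicase, the values were not equal. Mcm5 gave 15400 units in the library labelled knockout, against 18900 units in the library labelled wild type (log2 -0.33). Mcm3, with 2 probes, read 24310.5 and 29265 units (-0.30 ± 0.07, SD over 2 probes), and Mcm4 read 28900 and 33200 units (-0.23). The library labelled knockout gave the lower signal for all of these. Mcm7 read 27400 and 30700 units (-0.20), and Mcm6 66700 and 73700 units (-0.18), each in the libraries labelled knockout and wild type. Mcm2 stood apart from the other ring subunits at -0.01, with 4710 units in the library labelled knockout and 4640 units in the library labelled wild type. It stood above 0 with cyclic loess and without scaling. The SD between spots at this brightness was 0.05, and 5 of the 6 ring subunits lay below the median of all genes.

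The loading factors showed a like pattern. Cdc6, the ATPase that brings the ring to the origin, gave 631 units in the library labelled knockout, against 826 units in the library labelled wild type (-0.42 ± 0.13, SD over 2 probes). It was the lowest of the licensing genes, and its 2 probes lay on the same side of 0. Cdt1, the partner that delivers the ring and is destroyed in S phase, read 16000 and 17900 units in the same order (-0.19). Of the origin recognition complex, Orc2 stood at -0.14 (852 units in the library labelled knockout against 919 in the library labelled wild type) and Orc1 at -0.08 (496 against 513 units). Orc6, the smallest subunit, stood at 0.01 (10400 against 10100 units). The 3 origin recognition genes thus lay nearer to the median of all genes than Cdc6 and most of the ring.

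Genes of helicase activation had a median of -0.19 over 8 genes, 6 of them below the median of all genes. Mcm10, which helps the assembled helicase to open DNA, gave 7340 units in the library labelled knockout, against 8730 units in the library labelled wild type (-0.28). The GINS complex joins 4 subunits in equal number, and its genes divided. Gins2 stood at -0.26 (2700 against 3170 units), Gins1 at -0.20 (3000 against 3370 units) and Gins4 at -0.19 (3240 against 3610 units). Gins3 stood at 0.04, with 19400 units in the library labelled knockout and 18400 units in the library labelled wild type, on a spot in the last numbered part of the array, above feature number 50000. Without all spots of that part, which hold 10 of the 44 genes alone, the remaining 34 members had a median of -0.21, with 31 below the median of all genes. Cdc45, the other partner of the ring in the CMG helicase, also stood at 0.04 (707 against 673 units).

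The kinase that starts firing was read less well. Cdc7, its catalytic subunit, was dim, with 68.6 units in the library labelled knockout and 83.3 units in the library labelled wild type (-0.31 ± 0.33, SD over 2 probes). Its probes gave -0.08 and -0.55, so its place past 1.2-fold rests on 1 dim probe, which has a feature number above 50000. Dbf4, the regulatory subunit, stood at -0.09 (886 against 922 units).

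Polymerase and primase genes had a median of -0.18 over 8 genes, 6 of them below the median of all genes, and none was 1.2-fold lower. The polymerase alpha and primase complex, which lays down the primers, gave nearly equal values for its 4 subunits. Pola1, the catalytic subunit, gave 3320 units in the library labelled knockout, against 3760 units in the library labelled wild type (-0.21). Pola2 gave 271 and 304 units (-0.20). Prim2 read 2510 and 2800 units (-0.19), and Prim1, the primase itself, 13200 and 14600 units (-0.18). Without the X-linked Pola1 the median of the members was also -0.20. Polymerase delta, the lagging-strand enzyme, lay nearer 0, with Pold2 at -0.06 (2350 against 2390 units) and Pold1 at -0.04 (15000 against 15100 units). Both were above 0 with cyclic loess, and Pold1 also with quantile normalization.

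Polymerase epsilon copies the leading strand. Its subunit gene Pole2 stood at -0.20 (1280 units in the library labelled knockout against 1440 in the library labelled wild type). The catalytic subunit gene Pole had the highest value of all members, 0.09 ± 0.89 (SD over 3 probes), and its probes disagreed. The brightest gave 7430 units in the library labelled knockout, against 9000 units in the library labelled wild type (-0.31), another read 891 and 403 units (1.11), and the dimmest, close to the floor, 14.9 and 20.9 units (-0.52). The brightest 2 of the 3 have feature numbers above 50000. Pole therefore has no settled direction here.

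Clamp and loader genes had a median of -0.22 over 6 genes, 5 of them below the median of all genes. Rfc4 gave 5546 units in the library labelled knockout, against 6508 units in the library labelled wild type (-0.26 ± 0.01, SD over 2 probes). Rfc2 stood at -0.24 (5810 against 6730 units), Rfc5 at -0.24 (11800 against 13600 units) and Rfc1, the large subunit of the loader, at -0.20 (6590 against 7410 units). Rfc3 was the exception among the 5 loader genes at -0.02 (1180 against 1170 units), a value that passed 0 with quantile normalization, cyclic loess and no scaling. Pcna, the clamp that the loader places around DNA, gave 41500 units in the library labelled knockout, against 43500 units in the library labelled wild type (-0.10).

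The genes of single-strand binding and lagging-strand joining all lay below the median of all genes, with a median of -0.23 over 4. Rpa1, the large subunit of the single-strand binding protein, gave 13148 units in the library labelled knockout, against 17170.2 units in the library labelled wild type (-0.42 ± 0.28, SD over 2 probes). Its brighter probe gave -0.22 and its dimmer probe -0.62, so the size of its difference depends on the probe. Rpa2 stood at -0.23 (2240 against 2570 units). Lig1, the ligase that seals Okazaki fragments, stood at -0.24 (24100 against 27800 units), and Fen1, the nuclease that trims their flaps, at -0.20 (22000 against 24700 units).

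Deoxynucleotide genes had a median of -0.22 over 5, all 5 below the median of all genes, and the widest range of the 7 role groups. Tyms, thymidylate synthase, gave 161 units in the library labelled knockout, against 237 units in the library labelled wild type (-0.59, 1.51-fold lower). It was the lowest of the 44 and the only member past 1.5-fold. That fold was passed in that direction by 4.25% of all detected and 1.17% of the bright genes. Tyms is not among the bright genes, and the share past 1.5-fold in its own range of 50 to 500 units was not counted. At least 1.2-fold lower were 19.8% of the genes in that range, beside 11.9% of the bright genes. Tyms was read on a single probe where the SD between spots was 0.11. Tk1, the thymidine kinase of the salvage route, read 9700 and 12100 units in the libraries labelled knockout and wild type (-0.35). Tk2, the mitochondrial thymidine kinase, which is not among the 44, stood at 0.02 (436 against 421 units). Ribonucleotide reductase makes deoxynucleotides from ribonucleotides, and its subunit genes stood at -0.22 for Rrm1 (13700 against 15600 units) and -0.09 for Rrm2 (21700 against 22600 units). Dut, which removes dUTP, stood at -0.08 (9410 against 9720 units).

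The subunits of chromatin assembly factor 1, which places histones behind the fork, had equal values. Chaf1a gave 4240 units in the library labelled knockout, against 4830 units in the library labelled wild type (-0.22). Chaf1b gave 7894 and 9003 units, in the same order (-0.22 ± 0.04, SD over 2 probes). Across the 7 role groups the medians lay between -0.18 and -0.23, a range smaller than that of the genes within most groups.

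**Figure D3:**
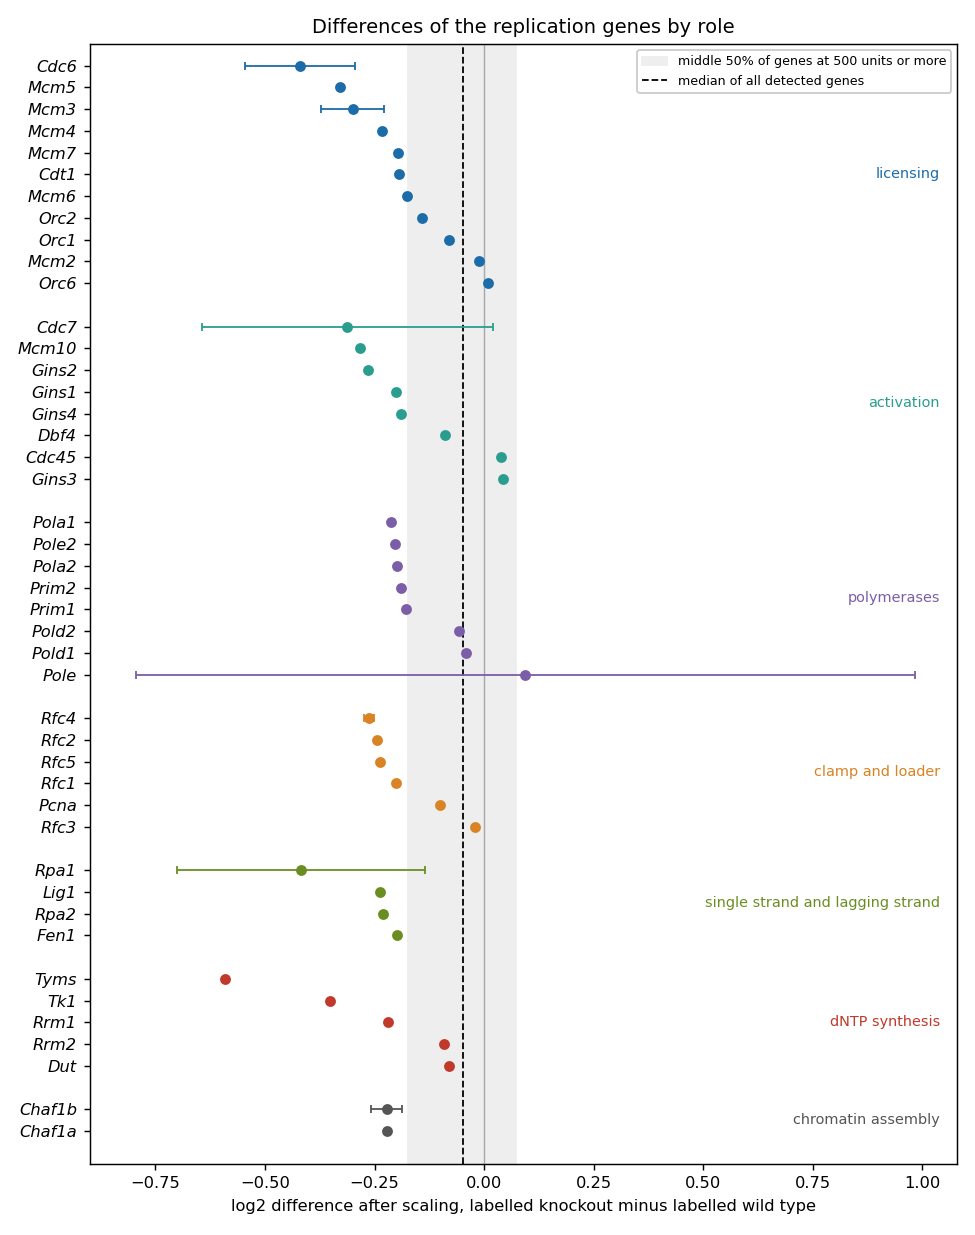
Log2 difference after scaling (labelled knockout minus labelled wild type) of each of the 44 genes, sorted within its role. Bars are the SD over probes for the 7 genes with 2 or 3 probes, the dashed line is the median of all detected genes (-0.05) and the grey band holds the middle 50% of genes at 500 units or more. Most points lie left of the dashed line, and Tyms at -0.59 is the lowest.

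Other genes of the pathway were lower to a like or smaller extent. Of 33 detected replication factors outside the 44, 26 lay below the median of all genes. Their median was -0.14, and 8 (24.2%) were lower by 1.2-fold or more and none higher, beside 17.2% and 17.0% of all detected genes. Dna2, a nuclease and helicase of Okazaki fragments, was the lowest at -0.71 ± 0.40 (2 dim probes, 73.1 units in the library labelled knockout against 117 in the library labelled wild type). Ticrr, which brings CDC45 to the licensed ring, stood at -0.43 ± 0.07 (2 probes), and Wdhd1, which ties polymerase alpha to the helicase, at -0.43. At the other end, Pold4, a small subunit of polymerase delta, stood at 0.24, Mtbp, the partner of the Ticrr protein, at 0.12, and Top2a, the topoisomerase that untangles copied DNA, at 0.07.

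Nucleotide synthesis outside the 44 was divided. Of 29 detected genes, 19 lay below the median of all genes, and the median was -0.15. By 1.2-fold or more, 7 genes were lower (24.1%) and 4 higher (13.8%), beside 17.2% and 17.0% of all detected genes. Pfas, an enzyme of purine synthesis, gave 1580 units in the library labelled knockout, against 2100 units in the library labelled wild type (-0.44). Dctpp1, which clears modified dCTP, stood at -0.41 and Nme1, a nucleoside diphosphate kinase, at -0.38 ± 0.09 (2 probes). Samhd1, which breaks deoxynucleotides down, was the highest at 0.60 ± 0.35 (2 probes, 8444 units in the library labelled knockout against 5449 in the library labelled wild type). Mthfd2, a mitochondrial enzyme of one-carbon metabolism, stood at 0.47, and Rrm2b, the reductase subunit used outside S phase, at 0.39 on a dim probe.

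The E2F list, which holds E2F factors, pocket proteins and regulators of entry into S phase, lay nearer to all genes. Its 19 detected members had a median of -0.10, with 11 below the median of all genes. By 1.2-fold or more, 4 were lower (21.1%) and 2 higher (10.5%), beside 17.2% and 17.0% of all detected genes. Tfdp2, a dimer partner of E2F proteins, stood at -0.69 ± 0.0035 (2 probes), Ccne1, the cyclin of S phase entry, at -0.32 ± 0.0020 (2 probes), and E2f8, a repressive family member, at -0.28. E2f5, a factor that binds pocket proteins, stood at 0.28 and E2f4, of the same kind, at 0.06. E2f7, the partner of E2f8, stood at 0.99 ± 1.93 (2 probes), so its probes disagreed and its direction is not settled.

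Mitotic genes were set beside the replication genes as the list most like them. The 25 detected of 26 had a median of -0.19, with 20 of them below the median of all genes. At least 1.2-fold lower were 2 (8%), beside 22.7% of the 44 members, 17.2% of all detected genes and 11.9% of the bright genes. None was 1.2-fold higher, beside 17.0% of all detected genes and 11.1% of the bright genes. Ttk, a spindle checkpoint kinase, stood at -0.34, Kif20a, a kinesin of cytokinesis, at -0.33, and Cenpf, a kinetochore protein, at -0.26 on a dim probe. Pbk, a mitotic kinase, stood at 0.09, Ube2c, a ubiquitin-conjugating enzyme of mitotic exit, at 0.01 ± 0.04 (2 probes), and Cdk1, the mitotic kinase, at -0.04 ± 0.06 (3 probes). In median, at -0.20, the replication genes therefore did not stand apart from the mitotic genes, and the shift was not shown to be particular to replication genes.

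**Figure D4:**
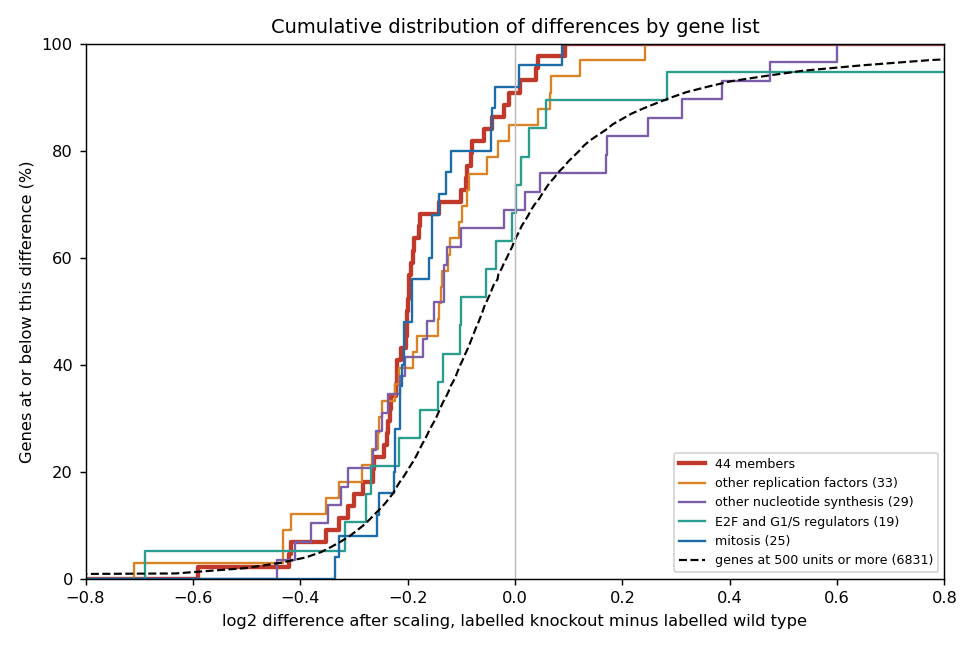
Cumulative share of genes (percent) at or below each log2 difference (labelled knockout minus labelled wild type), with a step line for each list and a dashed line for the 6831 genes at 500 units or more. The lines of the 44 members (median -0.20) and of the mitosis list (median -0.19) lie close together and left of the dashed line (median -0.06).

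Most genes listed as markers of other lymphocytes were higher in the library in which the replication genes were lower. All 13 CD8 T and NK cell markers were higher in the library labelled knockout, with a median of 1.22 and a summed signal of 8507 units against 3571 units in the library labelled wild type. Most of both sums is Gzma (2770 against 1160 units), Nkg7 (2076 against 968 units) and Eomes (1843 against 649 units). Cd8a gave 34.9 units in the library labelled knockout. Klrc1 and Klra4 were the highest at 2.31 and 2.13 and Klrk1 and Klrb1c the lowest, at 0.33 and 0.52 against the floor. Cd8a, Klrk1, Klrb1c and Ncr1 were above the detection floor in the library labelled knockout alone. Of 7 detected B cell markers 6 were higher, with Blnk at 3.62 and Ms4a1 at 3.52, and the list summed to 1135 units in the library labelled knockout and 527 units in the library labelled wild type. Cd79b was the lowest at -0.17, Ebf1 was above the floor in the library labelled knockout alone, and Pax5 and Fcrla were below the floor on both arrays. Of 9 detected T cell markers 7 were lower, with a median of -0.23 and sums of 156528 and 185015 units in the libraries labelled knockout and wild type, Cd6 (-0.51) and Cd5 (-0.43) being the lowest and Cd247 (1.85 ± 1.99, 2 probes) and Cd2 (0.51) the highest. Myeloid markers had 4 of 10 detected, with a median of -0.03 and sums of 624 and 310 units in the libraries labelled knockout and wild type. The sums differ through Mpeg1, which gave 335 units in the library labelled knockout and 11.7 units in the library labelled wild type, the second value being under the floor, while Itgam stood at -0.07 ± 0.29 (3 probes) and Adgre1 at -0.14 against the floor. Of the others, Lyz2, Cd14, Fcgr3, Itgax, S100a8 and S100a9 were below the floor on both arrays. Erythroid markers had 6 of 8 detected, with a median of 0.75 and sums of 2506 and 2487 units in that order, most of which is Tfrc, a gene that dividing T cells also use. The globin genes were higher in the library labelled knockout, with Hbb-bt at 115 against 12 units, Hba-a2 at 172 against 33.9 units (2.31) and Hba-a1 at 37.2 against 11.3 units. Epor was the lowest at -0.50. Hbb-bt, Hba-a1 and Klf1 were above the floor in the library labelled knockout alone, and Alas2 was below it on both arrays. Whether these marker signals came from other cells or from the CD4 T cells themselves was not tested. Any part of other cells in the lower replication signals was not tested either.

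**Figure D5:**
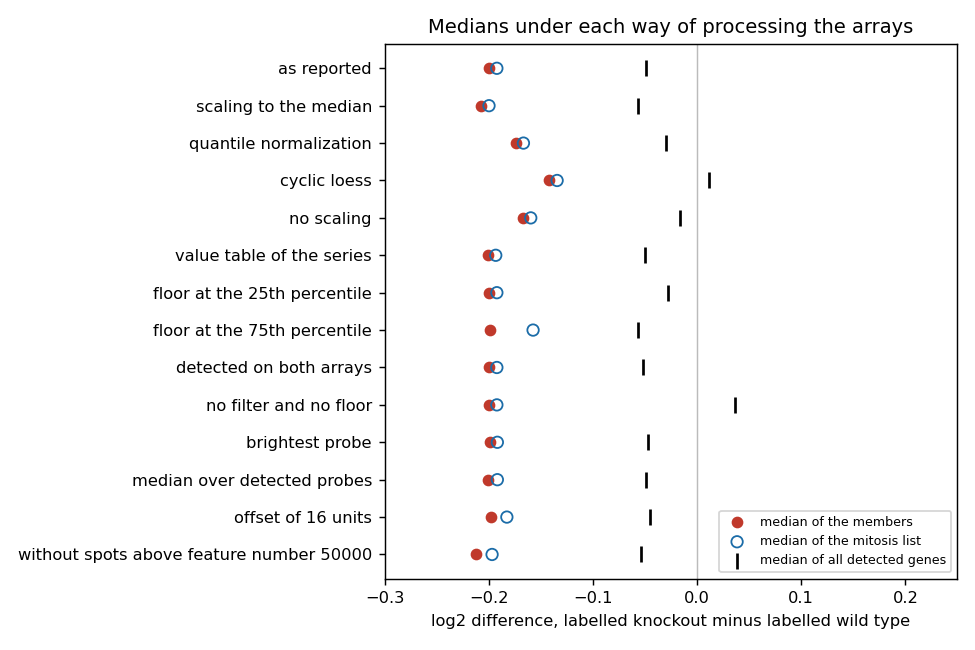
Median log2 difference (labelled knockout minus labelled wild type) of the members, of the mitosis list and of all detected genes under the reported processing and 13 alternatives. The median of the members ranges from -0.21 to -0.14 and lies left of the median of all genes in every case.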

How the data were processed

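RNA of 2 cultures was hybridised to 1-colour (Cy3) mouse arrays, 1 array per genotype by label, from 100 ng of total RNA per the labels' protocols. The submitters' processing notes name Agilent Feature Extraction 11.5.1.1. The deposited files give an intensity per spot, headed as raw, and the sources used here do not state its background correction. A table by the authors holds the same intensities times a constant for each array (median ratios 2.26 for the library labelled knockout and 2.27 for the library labelled wild type), with column medians of 34.8 and 34.4. It is linear and not centred, and served as an alternative.

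Of 59305 spots, 31465 carry 1 gene symbol, 0 several and 27840 none. Symbols came from the platform annotation and were updated through RefSeq (GRCm38.p6): 29036 spots by accession, 2075 by symbol, 349 by synonym, and 5 kept theirs. For each probe the log2 signals of its spots were averaged, and the array's 75th percentile over probes was then taken off. A probe was detected above its array's median (14.6 units for the library labelled knockout, 14.2 for the library labelled wild type), and an undetected side was set to this floor. A gene is the mean over probes detected on at least 1 array. With 1 array per genotype nothing was tested.

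Members and lists were chosen with earlier results of these data known. All 44 members are named, with at most the 3 lowest and 3 highest genes of each pathway list. Of the markers, those below the floor on an array and at most the 2 lowest and 2 highest of a list are named. Outside this rule are Tk2, named beside Tk1, Cd4, the targeted and sex-linked genes, and Gzma, Nkg7 and Eomes, which lead their sums. Alternatives are listed under the processing below. The steps were tested on simulated data. Values were computed in Python 3.11.15 with pandas 2.3.3, statsmodels 0.14.6 (for loess) and numpy 2.4.6, and drawn with matplotlib 3.10.9.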

Additional observations from a re-analysis of the deposited data

How the results depend on the processing

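Arrays were also left unscaled, scaled to their medians, or brought together by cyclic loess (span 0.3) or quantile normalization. Other alternatives were the authors' table, the 25th or 75th percentile as floor, detection on both arrays, no filter, the brightest or the median probe, 16 units added before log2, the spots up to feature number 50000 alone, and a 1.5-fold threshold. The median of the members stayed below 0 in all, and was farthest from the reported -0.20 with cyclic loess, at -0.14. Its distance from the median of all genes was -0.15, and -0.24 with neither filter nor floor, which were dropped together. Below that median lay 35 of 42 members with the floor at the 75th percentile, 31 of 34 with the spots up to feature number 50000, and 36 to 41 of 44 otherwise. Members at least 1.2-fold lower numbered 10 as reported (22.7%, beside 17.2% of all genes). With quantile normalization they numbered 6 (13.6%, beside 15.6% of all genes), and with cyclic loess 5 (11.4%, beside 12.4%). At a threshold of 1.5-fold 1 member was lower, beside 4.25% of all detected genes. That 1, Tyms, is likewise the count at 1.5-fold in place of 2-fold, where the reported count is 0. With the floor at the 75th percentile, 1 member, Pole, was at least 1.2-fold higher, through the loss of its dimmest probe. Of 560 member values under 13 alternatives, 512 moved by no more than the SD over probes or spots. That count was largely fixed in advance, because 37 members have 1 probe, which the floors, detection rules and probe summaries leave unchanged. The 48 that moved further did so with cyclic loess, quantile normalization or no scaling, and most members did with cyclic loess. The 10 members past 1.2-fold stayed below 0 wherever they had a value. Tyms and Cdc7 had none with the floor at the 75th percentile. No paired analysis was possible because each genotype has 1 array, and no array could be left out. Spread between arrays was not measured, and dim probes such as those of Cdc7 are read with a larger spread between spots.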
